A study of Mus musculus with 4 samples.

Results

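The 10 genes described here are markers of the liver sinusoidal endothelial cell: the C-type lectin gene Clec4g, the zona pellucida domain gene Oit3, the sialomucin gene Emcn, the scavenger receptor genes Stab1 and Stab2, the hyaluronan receptor gene Lyve1, the Fc receptor gene Fcgr2b, the nuclease gene Dnase1l3, the receptor gene Gpr182 and the VEGF receptor gene Kdr. They were taken by symbol from the array platform's annotation, through every probe set that carries exactly 1 gene symbol. All 10 were found, on 17 of the 45101 probe sets of the array, among 18194 genes with a symbol of their own there. They were measured in the livers of 2 mice labelled Cnot3+/-, heterozygous for Cnot3, a subunit gene of the CCR4-NOT complex that shortens poly(A) tails. These were compared with the livers of 2 wild-type mice. All 4 animals were male C57BL/6J mice, 12 weeks old, kept on normal chow and without food for 24 h when the liver was taken. The labels do not describe the Cnot3 allele, so its structure cannot be given as a limit of the model. Each animal has 1 one-colour Affymetrix array of whole-liver RNA, and the arrays are called Cnot3+/- 1, Cnot3+/- 2, wild-type 1 and wild-type 2 after their labels.

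Sinusoidal endothelial cells line the capillaries of the liver, which lack a basement membrane and are open to the blood through pores in the cells themselves. They are known as a clearance system: stabilins, the mannose receptor and Fc receptors take up hyaluronan, modified proteins and small immune complexes from blood. VEGF, made largely by hepatocytes, acts through the receptor encoded by Kdr and is known to maintain this cell state, while the endothelium in turn sends Wnt and BMP signals to hepatocytes.

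Values are log2 RMA values of the deposited table, a difference is Cnot3+/- minus wild-type on that scale, and SE is the moderated standard error of limma. The median log2 value of an array lay between 4.62 and 4.66. With 2 arrays in each group, precision is limited throughout. Of 13379 genes tested, 432 lay at least 2-fold apart between the Cnot3+/- arrays and 74 between the wild-type arrays. Cnot3 itself had log2 values of 7.70 and 7.86 in the Cnot3+/- arrays and 7.48 and 8.14 in the wild-type arrays, a difference of -0.03 (SE 0.25). Nothing in the labels says where its probes lie relative to the altered part of the gene, so the genotype labels were not borne out by this measurement and directions rest on the arrays as labelled. The hepatocyte marker Alb stood between 14.80 and 14.87 on all 4 arrays. This is close to the highest value of any probe set on an array (14.89 to 14.96), so Alb may show little of a change.

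All 10 sinusoidal endothelial genes had a lower mean in the Cnot3+/- livers, by 0.05 for Lyve1 to 0.99 for Clec4g on the log2 scale, and none passed the test across all genes. All 10 were bright enough on average to be tested. The median difference was -0.60, against -0.01 over all genes tested, of which 52.1% were lower. In 7 of the 10 genes both Cnot3+/- arrays lay below both wild-type arrays, as they did in 17.4% of all genes tested. No gene of the 10 stood higher without overlap, which was the case for 14.1% of all genes. A difference of at least 0.5 downward was found for 7 of the 10, and for 1.38% of all genes. With Cnot3+/- 1 left out, that count was 2, Oit3 and Emcn. With limma and Benjamini-Hochberg adjustment over all genes at a threshold of 0.05, 0 of the 10 passed, beside 0.0149% of all genes, and 0 genes in all passed in the downward direction. The smallest adjusted p among the 10 was 0.999. At an unadjusted p under 0.05 there were 4 of the 10 genes, Oit3, Emcn, Gpr182 and Kdr, beside 1.85% of all genes that were lower at that level. Without limma's moderation of variances 0 of the 10 passed after adjustment and 1 was under 0.05 before it. In whole-liver RNA, fewer cells of a type and less RNA per cell cannot be told apart.

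**Figure D1:**
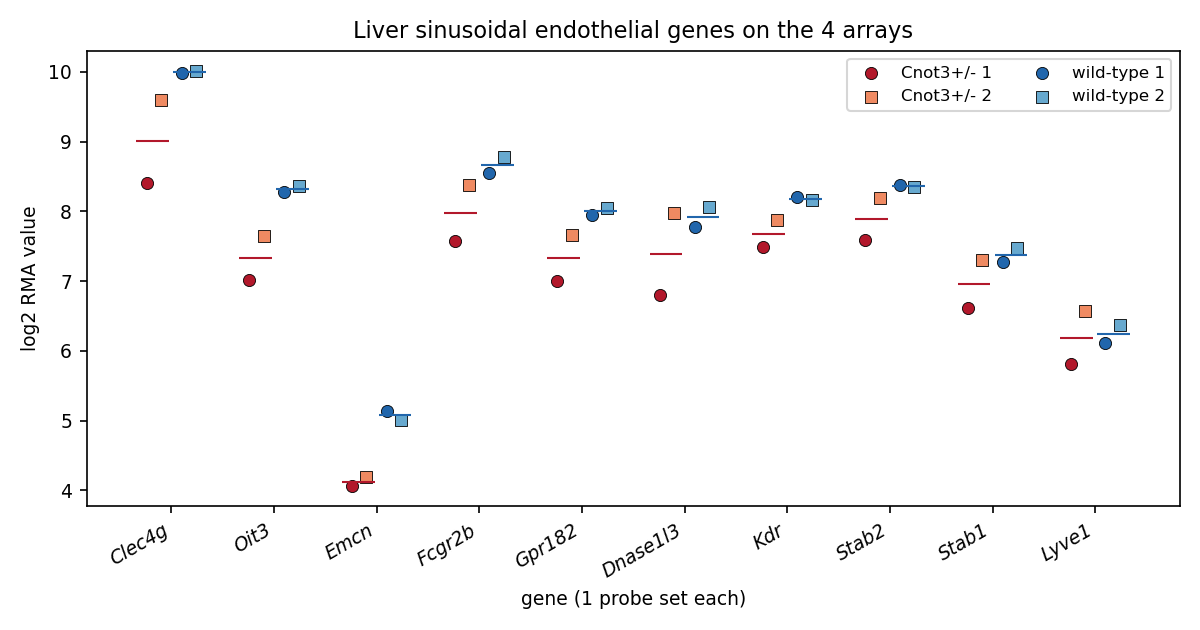
Log2 RMA values of the 10 sinusoidal endothelial genes, 1 probe set each, on the Cnot3+/- arrays (red and orange, left in each pair) and the wild-type arrays (blue); horizontal lines are group means (n = 2). Cnot3+/- 1 is the lowest array for every gene, and Cnot3+/- 2 lies above both wild-type arrays for Lyve1.

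The surface lectin gene Clec4g and the Fc receptor gene Fcgr2b both stood lower on each Cnot3+/- array, without overlap on the probe sets that stood for them. Clec4g, which encodes the glycan-binding lectin LSECtin, had log2 values of 8.40 and 9.60 in the Cnot3+/- livers, against 9.99 and 10.01 in the wild-type livers. The wild-type arrays nearly coincided, both Cnot3+/- arrays lay below them, and Cnot3+/- 1 lay much further below than Cnot3+/- 2. The difference was -0.99 (SE 0.39, 95% confidence interval -2.00 to 0.01, n = 2 per group), the 13th lowest of 13379 genes. It was -1.59 with Cnot3+/- 1 alone and -0.39 with Cnot3+/- 2 alone against the wild-type mean. Fcgr2b encodes the inhibitory IgG receptor, which in mouse liver is found mostly on the sinusoidal endothelium and is also carried by B cells and macrophages. On the probe set that stood for the gene it had 7.58 and 8.37 in the Cnot3+/- livers, against 8.55 and 8.78 in the wild-type livers. These groups did not overlap, and the difference was -0.69 (SE 0.29).

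The scavenger and hyaluronan receptors differed less. Stab2, the main hyaluronan clearance receptor of the sinusoid, had 7.59 and 8.19 in the Cnot3+/- livers, against 8.37 and 8.34 in the wild-type livers. The groups did not overlap, and the difference was -0.47 (SE 0.23), with Cnot3+/- 2 at -0.17 from the wild-type mean. Stab1, its paralog, which macrophages can also express, had 6.61 and 7.30 in the Cnot3+/- livers, against 7.27 and 7.47 in the wild-type livers. Here Cnot3+/- 2 lay between the wild-type arrays, so the groups overlapped (difference -0.42, SE 0.26). Lyve1, a hyaluronan receptor of lymphatic and sinusoidal endothelium, had 5.81 and 6.57 in the Cnot3+/- livers, against 6.11 and 6.37 in the wild-type livers. Its Cnot3+/- arrays lay on either side of the wild-type pair, and its difference of -0.05 (SE 0.28, interval -0.76 to 0.66) covers both directions. Lyve1 differed by 0.33 with Cnot3+/- 1 left out and by 0.08 with wild-type 2 left out.

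Of the secreted proteins, Oit3 stood low on both Cnot3+/- arrays and Dnase1l3 on 1 of them. Oit3, whose product is a liver protein with a zona pellucida domain, had 7.02 and 7.64 in the Cnot3+/- livers, against 8.28 and 8.37 in the wild-type livers. Both Cnot3+/- values lay well below the wild-type pair, and the difference was -0.99 (SE 0.23, interval -1.58 to -0.40), with an unadjusted p of 0.00727 in limma and an adjusted p of 0.999. Dnase1l3 encodes a secreted nuclease that digests DNA of circulating chromatin, and it is also made by macrophages and dendritic cells. It had 6.80 and 7.97 in the Cnot3+/- livers, against 7.77 and 8.07 in the wild-type livers. Cnot3+/- 1 alone lay below the wild-type arrays, and Cnot3+/- 2 lay between them. The difference of -0.53 (SE 0.40) turned to 0.05 with Cnot3+/- 1 left out.

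The remaining surface genes all had groups without overlap. Emcn, the sialomucin endomucin of capillary and venous endothelium, had 4.07 and 4.18 in the Cnot3+/- livers, against 5.14 and 5.01 in the wild-type livers. Both Cnot3+/- arrays stood about equally low, unlike those of Clec4g. The difference was -0.95 (SE 0.14, interval -1.30 to -0.60), with an unadjusted p of 0.000841 in limma and an adjusted p of 0.999. Emcn was dim: its Cnot3+/- values lay at or just above the filter of 4.06, where RMA compresses differences. Gpr182, an atypical chemokine receptor of sinusoidal and lymphatic endothelium, had 6.995 and 7.66 in the Cnot3+/- livers, against 7.95 and 8.05 in the wild-type livers. Its difference was -0.68 (SE 0.24). Kdr, which encodes VEGF receptor 2, had 7.49 and 7.87 in the Cnot3+/- livers, against 8.21 and 8.16 in the wild-type livers. Cnot3+/- 1 was again the lower array, and the difference was -0.50 (SE 0.17), or 0.705-fold the wild-type level.

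The promoter windows of 6 of the 10 genes were matched by symbol in RefSeq (GRCm38.p6), each from 250 bases before to 50 bases after a transcription start. Clec4g lies at chr8:3720602-3720901 on the minus strand, Emcn at chr3:137340828-137341127 on the plus strand, Fcgr2b at chr1:170976022-170976321 on the minus strand and Kdr at chr5:75978406-75978705 on the minus strand. The windows of Clec4g, Emcn and Fcgr2b are shown because, of the genes matched, these had the largest differences, and that of Kdr because it is the VEGF receptor of these cells. Capitals mark GGAAG or its reverse complement CTTCC, the core recognised by ETS factors, and GATAA or its reverse complement TTATC, the core recognised by GATA factors. Both motifs were searched on both strands, and matches of GGAAG overlap each other in Clec4g.
Clec4g: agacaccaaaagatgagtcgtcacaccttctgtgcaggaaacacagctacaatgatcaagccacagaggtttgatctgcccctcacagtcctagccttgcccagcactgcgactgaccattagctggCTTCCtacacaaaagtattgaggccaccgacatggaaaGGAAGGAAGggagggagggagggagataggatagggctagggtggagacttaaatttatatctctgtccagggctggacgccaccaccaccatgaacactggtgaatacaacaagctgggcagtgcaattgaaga
Emcn: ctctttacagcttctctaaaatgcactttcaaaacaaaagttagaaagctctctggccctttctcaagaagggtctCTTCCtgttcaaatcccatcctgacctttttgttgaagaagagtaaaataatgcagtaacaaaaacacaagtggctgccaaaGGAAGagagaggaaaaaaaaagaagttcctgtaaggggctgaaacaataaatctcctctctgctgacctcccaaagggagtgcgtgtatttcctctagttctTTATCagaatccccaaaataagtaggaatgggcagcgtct
Fcgr2b: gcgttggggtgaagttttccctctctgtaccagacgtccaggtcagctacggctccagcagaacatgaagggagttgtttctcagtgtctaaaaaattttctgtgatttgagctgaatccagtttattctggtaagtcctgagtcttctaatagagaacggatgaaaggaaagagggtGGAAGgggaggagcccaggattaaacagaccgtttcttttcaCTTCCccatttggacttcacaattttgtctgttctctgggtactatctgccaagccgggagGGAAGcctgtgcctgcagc
Kdr: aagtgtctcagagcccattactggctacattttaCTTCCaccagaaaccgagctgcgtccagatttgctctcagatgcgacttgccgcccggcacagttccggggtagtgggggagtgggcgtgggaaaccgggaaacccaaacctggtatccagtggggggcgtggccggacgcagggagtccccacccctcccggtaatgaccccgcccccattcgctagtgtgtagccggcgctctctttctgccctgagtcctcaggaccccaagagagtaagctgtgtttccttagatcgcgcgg
GGAAG was found in 6 of the 6 windows and in 71.4% of all 32851 windows of the same length. GATAA was found in 1 of the 6, that of Emcn, and in 25.4% of all windows. Such short matches describe letters and not bound sites, and a window without a match says nothing of the factor.

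Several probe sets were available for 4 of the genes, and all 17 probe sets had a lower mean in the Cnot3+/- livers. Of these, 16 passed the filter on dim probe sets and were tested, and among all probe sets tested 51.3% were lower. Of the 16, 1 probe set of Dnase1l3 passed the filter only through its wild-type values. Among the other 15, 10 had groups without overlap, beside 16.5% of all 23102 probe sets tested, and 0 of the 16 passed after adjustment, beside 0.00866%. The probe sets of Fcgr2b bear most on a value given above, since the one that stood for the gene had the smallest difference of the 4 tested. The probe set 1451941_a_at had 6.85 and 8.29 in the Cnot3+/- livers, against 8.76 and 9.11 in the wild-type livers, a difference of -1.36 (SE 0.47). On 1435477_s_at and 1455332_x_at, types that can match several transcripts, Fcgr2b differed by -1.08 (SE 0.40) and -1.07 (SE 0.38). All 4 had both Cnot3+/- arrays below both wild-type arrays, with Cnot3+/- 1 the lower. The fifth, 1447622_at, averaged 2.79 over the arrays, under the filter, and differed by -0.12.

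The other genes with more than 1 probe set had a bright and a dim one, or 2 of like size. Clec4g differed by -0.13 (SE 0.15) on 1431575_at, which averaged 4.78 and did not show the low value of Cnot3+/- 1 (4.80 and 4.64 in the Cnot3+/- livers, 4.94 and 4.76 in the wild-type livers). Averaging both probe sets of Clec4g gave -0.56, and averaging the 4 tested ones of Fcgr2b gave -1.05. On the dim 1421056_at of Dnase1l3, the Cnot3+/- mean of 3.89 lay under the filter and the wild-type mean of 4.27 above it, so this probe set was tested only through its wild-type values and supports no direction. Lyve1 differed by -0.05 (SE 0.16) on 1453128_at, as it did on its brighter probe set.

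**Figure D2:**
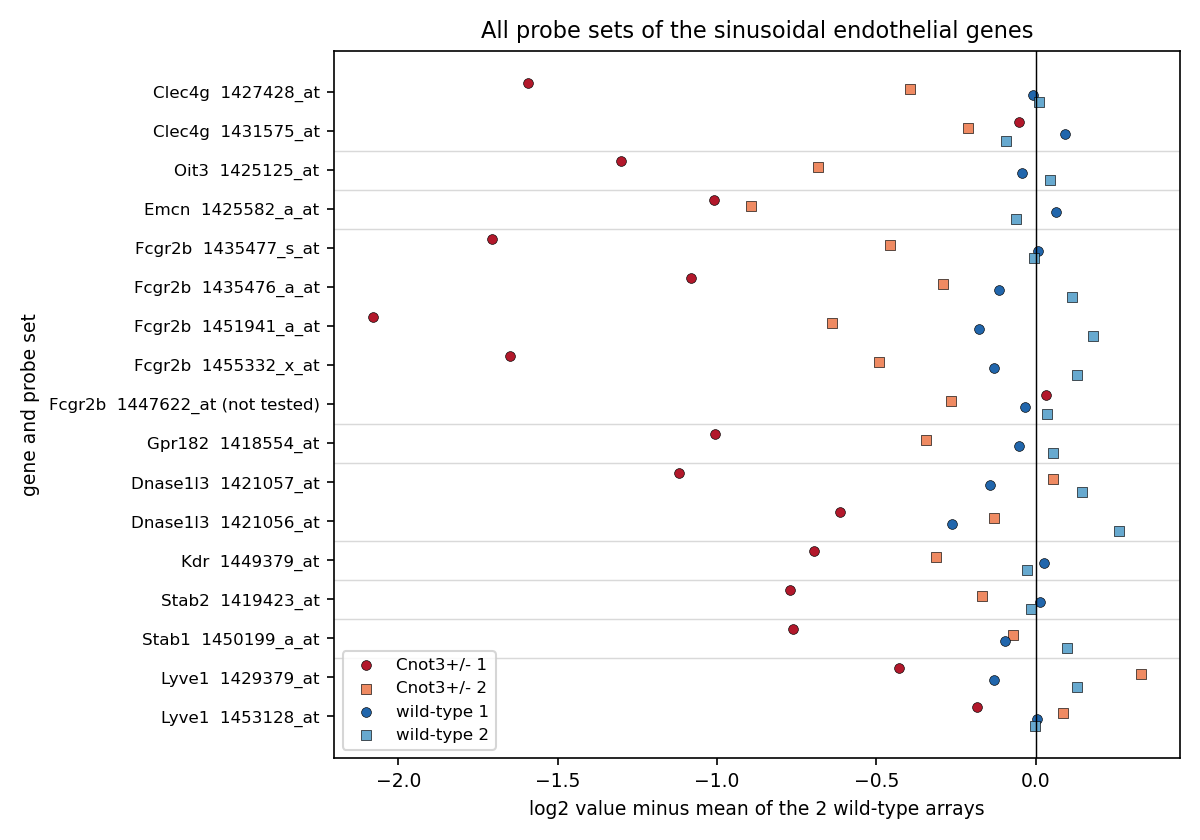
Log2 value minus the mean of the 2 wild-type arrays for each of the 17 probe sets (rows, grouped by gene), with the Cnot3+/- arrays in red and orange and the wild-type arrays in blue. The 4 tested Fcgr2b probe sets place Cnot3+/- 1 between -2.08 and -1.08, while the dim Clec4g probe set places it at -0.05.

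The 2 Cnot3+/- livers differed from each other by more than the wild-type livers did in 9 of the 10 genes, with Emcn the exception. Cnot3+/- 1 was lower than Cnot3+/- 2 for 10 of the 10 genes, beside 48.4% of all genes tested. It lay below both wild-type arrays for 10 of the 10 (33.8% of all genes), and Cnot3+/- 2 did so for 7 of the 10 (36.3%). The gap between the Cnot3+/- arrays had a median of 0.68 over the 10 genes and the gap between the wild-type arrays 0.12. Over all genes tested the corresponding medians were both 0.18. Relative to the wild-type mean, the median of the 10 genes was -1.01 on Cnot3+/- 1 and -0.30 on Cnot3+/- 2, with -0.05 and 0.05 on the wild-type arrays. The size of the group difference therefore rests mainly on Cnot3+/- 1. With that array left out, Dnase1l3 and Lyve1 no longer stood lower, and the other 8 genes differed by -0.07 (Stab1) to -0.89 (Emcn).

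**Figure D3:**
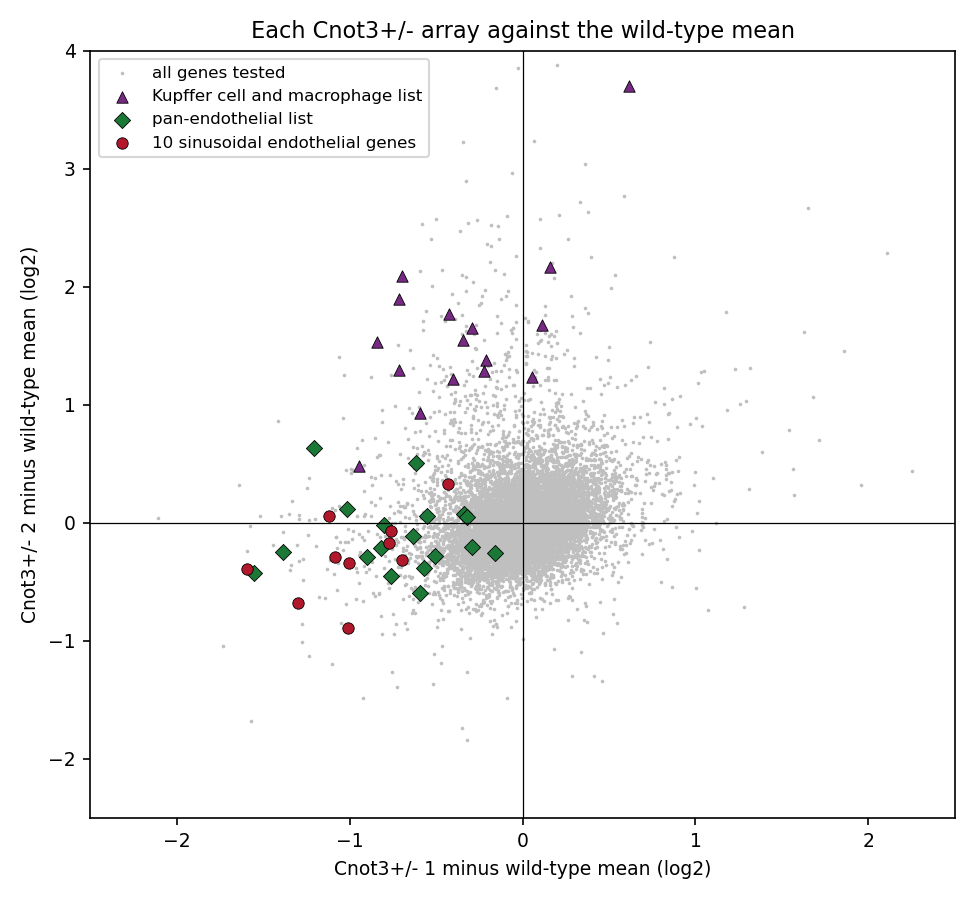
Log2 difference of each gene from the wild-type mean on Cnot3+/- 1 (horizontal) and on Cnot3+/- 2 (vertical), for all genes tested (grey, 8 of them outside the axes), the 10 sinusoidal endothelial genes (red circles), the pan-endothelial list (green diamonds) and the Kupffer cell and macrophage list (purple triangles). The 10 genes lie left of 0 and mostly just below it, and the macrophage genes lie above 0 on Cnot3+/- 2.

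Other genes of the sinusoidal endothelium showed the low values on Cnot3+/- 1, with less on Cnot3+/- 2. Of 17 such genes listed, all tested, 12 were lower and 5 higher, 0 passed the test, and the median difference was -0.44. Of the 17, 6 were lower without overlap, beside 17.4% of all genes tested. The median of this list was -0.76 relative to the wild-type mean on Cnot3+/- 1 and 0.02 on Cnot3+/- 2. The BMP ligand genes, whose products act on hepatocytes to raise hepcidin, had the lowest differences of the list. Bmp6 had 5.62 and 6.13 in the Cnot3+/- livers, against 6.87 and 6.65 in the wild-type livers (difference -0.89, SE 0.21). Bmp2 had 7.29 and 7.79 in the Cnot3+/- livers, against 8.45 and 8.27 in the wild-type livers (difference -0.82, SE 0.21). For both genes the Cnot3+/- arrays lay below the wild-type pair. At the other end, Clec1b, a lectin that binds podoplanin, differed by 0.26 (SE 0.44), with 7.35 on Cnot3+/- 1 and 8.71 on Cnot3+/- 2, against 7.68 and 7.85 in the wild-type livers. The transcription factor gene Maf differed by 0.08 (SE 0.20).

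Genes expressed by endothelium in general were lower in 18 of 18 cases, with a median difference of -0.40 and 0 past the test. In 11 of the 18 both Cnot3+/- arrays lay below both wild-type arrays, beside 17.4% of all genes tested. On Cnot3+/- 1 all 18 lay below both wild-type arrays (33.8% of all genes), and on Cnot3+/- 2 it was 11 (36.3%). The list medians on these 2 arrays were -0.63 and -0.21 relative to the wild-type mean. On Cnot3+/- 2 alone, 6 of the 18 lay above that mean. Tek, which encodes the angiopoietin receptor TIE2, had 4.81 and 5.94 in the Cnot3+/- livers, against 6.46 and 6.28 in the wild-type livers (difference -0.99, SE 0.38). Ramp2, a co-receptor for adrenomedullin, had 5.85 and 6.99 in the Cnot3+/- livers, against 7.28 and 7.19 in the wild-type livers (difference -0.82, SE 0.38). For both genes Cnot3+/- 2 lay under the wild-type arrays, by less than Cnot3+/- 1 did. The nearest to 0 was Cdh5, the gene of VE-cadherin, with 5.72 and 6.84 in the Cnot3+/- livers, against 6.20 and 6.47 in the wild-type livers (difference -0.05, SE 0.38).

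Genes of continuous capillaries and larger vessels were split. Of 13 tested, 7 were higher and 6 lower, 0 passed the test, and the median lay at 0.0043. Ltbp4, a TGF-beta binding matrix gene, and Selp, the gene of P-selectin, differed by -0.69 (SE 0.37) and -0.38 (SE 0.13). Vwf, the gene of von Willebrand factor, differed by 0.35 (SE 0.17) and Hey1, a Notch target, by 0.14 (SE 0.13). Plvap, the gene of the fenestral diaphragm protein of capillaries, had 8.24 and 9.52 in the Cnot3+/- livers, against 8.64 and 8.86 in the wild-type livers, and was picked after its values were seen. The 4 lymphatic endothelial genes tested differed by -0.22 to -0.0019, with 0 past the test.

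In the VEGF, angiopoietin and Notch list, 12 of 16 tested genes were lower and 4 higher, 0 passed the test, and the median lay at -0.18. Of the 16, 8 were lower without overlap, beside 17.4% of all genes tested. The 2 lowest were Tek and Flt1. Flt1, which encodes VEGF receptor 1, had 5.58 and 5.92 in the Cnot3+/- livers, against 6.35 and 6.10 in the wild-type livers (difference -0.48, SE 0.18). The 2 highest were the ligand genes Vegfd and Vegfb, at 0.40 (SE 0.20) and 0.27 (SE 0.26), and Vegfd, with a wild-type mean of 4.04 under the filter, was tested only through its Cnot3+/- values. Vegfa, the main ligand of the receptor encoded by Kdr, differed by -0.13 (SE 0.24), with 8.01 and 7.71 in the Cnot3+/- livers, against 7.70 and 8.28 in the wild-type livers. This list shares Tek and Tie1 with the pan-endothelial list, Flt4 with the sinusoidal one and Nrp2 with the lymphatic one.

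Other genes of the receptor families to which the 10 belong had, for the most part, a higher mean in the Cnot3+/- livers. Of 15 scavenger and endocytic receptor genes tested outside the 10, 13 were higher and 2 lower (median 0.21, 0 past the test). The list median was 0.10 on Cnot3+/- 1 and 0.26 on Cnot3+/- 2 relative to the wild-type mean, while the list means were 0.09 and 0.65. Cnot3+/- 1 was lower than Cnot3+/- 2 for 9 of the 15 genes, beside 48.4% of all genes tested. The list shares Marco, Cd163 and Clec4f with the Kupffer cell list and Mrc1 and Cd209b with the sinusoidal one. Mrc1, the mannose receptor gene of sinusoidal endothelium and macrophages, had 7.78 and 8.99 in the Cnot3+/- livers, against 8.95 and 8.75 in the wild-type livers (difference -0.46, SE 0.40). Marco, a macrophage scavenger receptor gene, differed by 2.16 (SE 0.97), with 6.40 on Cnot3+/- 1 and 9.49 on Cnot3+/- 2. Scara5, a ferritin receptor gene, differed by 0.99 (SE 0.31), with the higher value on Cnot3+/- 1 (9.67) and the lower on Cnot3+/- 2 (8.89). Of 6 other Fc receptor genes tested, 5 were higher and 1 lower (median 0.53, 0 past the test). This rests on Cnot3+/- 2: the median relative to the wild-type mean was -0.16 on Cnot3+/- 1 and 1.05 on Cnot3+/- 2. On Cnot3+/- 1, 5 of the 6 lay below both wild-type arrays, beside 33.8% of all genes tested. Fcgrt, the gene of the neonatal Fc receptor, differed by -0.14 (SE 0.15). Fcgr4, an activating IgG receptor gene of myeloid cells, had 5.53 and 7.92 in the Cnot3+/- livers, against 5.66 and 5.77 in the wild-type livers. Its high value lay on Cnot3+/- 2 alone, where Fcgr2b was lower than in wild-type on all 4 tested probe sets. Among other DNase genes, 2 of 4 were higher and 2 lower, from Dnase2a at -0.63 (SE 0.31) to Dnase1l2 at 0.16 (SE 0.14), with 0 past the test.

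Markers of other liver cells took other orders over the arrays. In the Kupffer cell and macrophage list, 15 of 16 genes were higher and 1 lower (median 0.59, 0 past the test). On Cnot3+/- 1, however, 11 of the 16 lay below both wild-type arrays, beside 33.8% of all genes tested. On Cnot3+/- 2 it was 0, beside 36.3%. The list median was -0.38 on Cnot3+/- 1 and 1.54 on Cnot3+/- 2 relative to the wild-type mean. Summed on the linear scale, the list had 4838 on Cnot3+/- 1 and 17833 on Cnot3+/- 2, against 5670 and 6352 in the wild-type livers. Marco had the highest difference of this list and Fcna, a ficolin gene, the lowest, at -0.23 (SE 0.47). Clec4f, the Kupffer cell lectin gene, had 8.74 and 10.37 in the Cnot3+/- livers, against 8.99 and 9.31 in the wild-type livers. Macrophages also express Fcgr2b, Stab1, Dnase1l3 and Lyve1, and the part of macrophage RNA in the values of these genes was not tested. The 10 sinusoidal genes summed to 1441 on Cnot3+/- 1 and 2558 on Cnot3+/- 2, against 3053 and 3233 in the wild-type livers.

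Stellate cell and fibroblast genes had 6 of 13 higher and 7 lower (median -0.01, 0 past the test). Of these, 9 lay below both wild-type arrays on Cnot3+/- 1 and 0 on Cnot3+/- 2, and the list summed to 3647 and 6614 in the Cnot3+/- livers, against 4870 and 5144 in the wild-type livers. Col1a1, a collagen gene counted among the 6 higher, had a wild-type mean under the filter. It was tested only through its Cnot3+/- values and supports no direction. Col3a1, a fibrillar collagen gene, differed by 0.73 (SE 0.58) and Reln, the reelin gene, by -0.37 (SE 0.26). Lrat, the retinol esterifying enzyme gene of stellate cells, had 6.25 and 7.52 in the Cnot3+/- livers, against 7.03 and 7.22 in the wild-type livers. Cnot3+/- 1 was thus low for most markers of the Kupffer cell and stellate cell lists too, and not for the hepatocyte list. In that list 9 of 11 genes were higher and 2 lower (median 0.10, 0 past the test), with medians of 0.20 on Cnot3+/- 1 and 0.03 on Cnot3+/- 2. Ass1, a urea cycle enzyme gene, differed by 0.71 (SE 0.22) and Ttr, the transthyretin gene, by -0.08 (SE 0.13). The probe set that stood for Ass1 was the dimmest of this list, with 7.66 and 7.09 in the Cnot3+/- livers, against 6.71 and 6.63 in the wild-type livers. The hepatocyte list summed to 149239 on Cnot3+/- 1 and 139009 on Cnot3+/- 2, against 136156 and 135870 in the wild-type livers. Whether the cell make-up of the sampled liver pieces has a part in the low endothelial values was not tested. The smaller lists had 0 genes past the test and median differences of 0.27 (cholangiocyte, 3 tested), 0.16 (B, T and NK cell, 7 tested), 0.04 (neutrophil, 8 tested) and 0.03 (erythroid, 3 tested). Among them, Cd3g and S100a8 had wild-type means under the filter (3.94 and 4.059) and were tested only through their Cnot3+/- values. Camp, with a Cnot3+/- mean of 4.05, was tested only through its wild-type values.

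**Figure D4:**
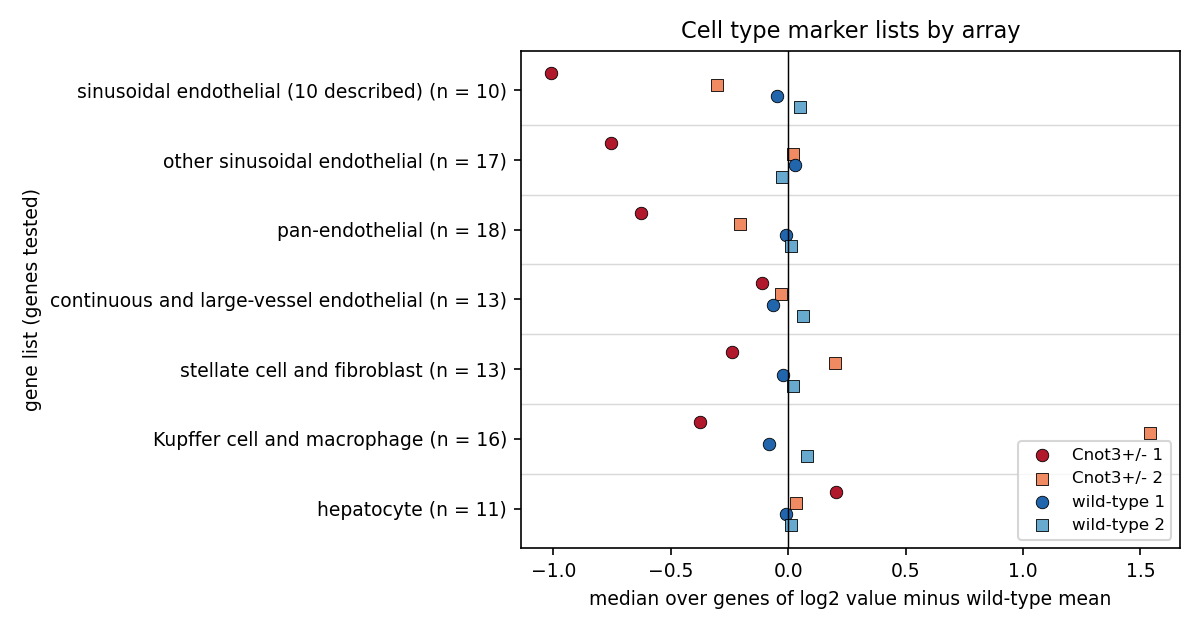
Median over the genes of each list of the log2 value minus the wild-type mean, by array, with the Cnot3+/- arrays in red and orange and the wild-type arrays in blue; n is the number of genes tested. The 10 sinusoidal endothelial genes lie at -1.01 on Cnot3+/- 1 and -0.30 on Cnot3+/- 2, and the Kupffer cell and macrophage list at -0.38 and 1.54.

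To find the genes whose pattern was most like that of Clec4g, each gene was centred on its mean and compared by the root mean square distance over the 4 arrays. The 5 nearest of all genes tested were Tek (distance 0.0742), Ramp2 (0.0968), the ETS factor gene Elk3 (0.102), the water channel gene Aqp1 (0.117) and Gpihbp1 (0.136), whose product carries lipoprotein lipase across capillary endothelium. Elk3 had 4.67 and 5.93 in the Cnot3+/- livers, against 6.17 and 6.06 in the wild-type livers. Aqp1 had 7.91 and 9.27 in the Cnot3+/- livers, against 9.36 and 9.65 in the wild-type livers. Gpihbp1 had 6.95 and 7.92 in the Cnot3+/- livers, against 8.15 and 8.34 in the wild-type livers. On each, Cnot3+/- 1 stood about 1 or more log2 units under the next array. By the same measure Oit3 ranked 19, Fcgr2b 22, Gpr182 31, Dnase1l3 33, Stab2 75, Stab1 82, Kdr 120, Emcn 132 and Lyve1 569 among all genes tested. With 4 arrays, this is a description of these livers and carries no test.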

How the data were processed

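The authors deposited log2 values per probe set, and the submitters' processing notes name RMA as their method. Its version and the set of arrays normalized with it are not stated. The log2 scale was taken from the values, and 0 value columns were left unmapped. Probe sets were named by the platform annotation: 34958 of 45101 have 1 gene symbol, 932 several and 9211 none. Probe sets in the lowest 40% by mean (under 4.06) were left out, and each gene was read from its brightest probe set on average, with _s_at and _x_at types used only where no other remained. The Cnot3+/- arrays were compared with wild-type over 13379 genes in limma 3.58.1 (R 4.3.3; lmFit, eBayes, two-sided, Benjamini-Hochberg, threshold 0.05), with 2 residual and 3.17 prior degrees of freedom. A second fit took all 23102 probe sets with 1 symbol past the filter. The fit over genes was tested on simulated data with upward shifts only, and the fit over probe sets was not. P-values measure the spread between 2 animals per group and the prior.

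The members and lists were chosen with earlier results of these data known. The genes named are the 10 members, Cnot3, the 5 genes nearest to Clec4g and, for the lists described gene by gene, 1 or 2 genes of largest difference in a direction; others serve to describe a list and were picked after their values were seen. Lists were described by counts and medians, with no set test. Alternatives changed the filter, the probe set rule, the scaling, the variance model, the replicate number as a block and the arrays used.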

Additional observations from a re-analysis of the deposited data

How the results depend on the processing

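The lower direction of 8 of the 10 genes held in every alternative in which they were tested, and 0 of the 10 passed the threshold in any. Leaving out 1 array in turn gave Lyve1 between -0.43 (Cnot3+/- 2 omitted) and 0.33 (Cnot3+/- 1 omitted), with 0.08 when wild-type 2 was omitted, and Dnase1l3 between -1.12 (Cnot3+/- 2 omitted) and 0.054 (Cnot3+/- 1 omitted). The brighter probe set of each gave the same values, and the dimmer one of Lyve1 lay between -0.18 and 0.086. In the same way, the median difference of the 10 genes ran from -1.01 (without Cnot3+/- 2) to -0.30 (without Cnot3+/- 1), the number higher from 0 to 2 and the number lower from 8 to 10. Counts with an array omitted were added after the data were seen: 2 (Cnot3+/- 1 omitted) to 9 (Cnot3+/- 2 omitted) of the 10 genes were lower by at least 0.5, and 7 to 10 were lower without overlap, which 3 arrays reach more easily. Leaving out the lowest 60% of probe sets removed Emcn and gave a median of -0.53 over 9 genes. The count of all genes past the threshold ran from 0 to 38 with 1 array left out, and the 38 came without Cnot3+/- 1 and the 0 without either wild-type array. With the replicate number as a block it was 0, a setting in which labels give no shared litter or day and the deviations of same-numbered arrays correlated at 0.16 over genes. The block changed no call among the 10. Without moderation of variances 2 genes passed, Tmem87a and Ncbp3, with 0 shared with those of limma. Of these 2 genes, 1 had identical values on the wild-type arrays. The cause of these shifts was not tested. Dim probe sets, Emcn among them, limit what can be read near the filter.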
